A study of Mus musculus with 4 samples.

Results

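Neutrophil granule and maturation genes were followed in mouse hematopoietic stem and progenitor cells (HSPCs), including at low level in cells that are not neutrophil-primed. They were looked up by symbol among the 28692 genes of the count files, and all 10 were found in all 4 pools: Mpo, Elane, Prtn3, Ctsg, Cebpe, Hp, Ly6c2, Trem3, Ncf1 and Hk3. The study asked how HSPCs change with age by single-cell RNA-seq of cells sorted from bone marrow as lineage-negative, Sca1+, cKit+ and Flt3-. All mice were C57BL/6-CD45.2 males. Young mice were 2 to 3 months old and aged mice 17 to 18 months old, with no other treatment or genotype in either group. Each age had 2 pools, so each value below came from several mice and not from 1 animal. Young pool A held 2 mice and young pool B 3, and aged pool A held 3 mice and aged pool B 2. The letter names the platform where a pool was processed, HalioDX for A and TGML for B, and the ages were compared within a platform. The paper reports more reads per cell for young B and aged A than for young A and aged B. Where the platforms differ in the change with age, platform and read depth therefore cannot be told apart. The titles and source names give these ages, but the free-text descriptions of young B and aged A name the other age, and the titles were followed.

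Neutrophils carry granules that are filled in order as the cell matures. The primary or azurophil granules come earliest, at the promyelocyte stage, and hold myeloperoxidase and the serine proteases. Later granules hold proteins such as lactoferrin, and the NADPH oxidase assembles on the membrane of the mature phagocyte. In stem and progenitor cells, transcripts of the primary granule genes can mark priming towards the neutrophil fate well before any granule is made. In these data they were not limited to neutrophil-primed cells, as the levels below show. Mpo encodes myeloperoxidase, which makes hypochlorous acid. Elane, Prtn3 and Ctsg encode the serine proteases neutrophil elastase, proteinase 3 and cathepsin G. Cebpe encodes C/EBPε, a transcription factor needed for late granulocyte maturation. Hp encodes haptoglobin, which binds free hemoglobin. Ly6c2 encodes the surface antigen Ly6C of monocytes and other myeloid cells, and Trem3 a receptor of the TREM family. Ncf1 encodes p47phox, the organizing subunit of the NADPH oxidase, and Hk3 a hexokinase found in myeloid cells.

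In GRCm38 (GENCODE M21), Prtn3 lay at chr10:79874476-79883174 and Elane at chr10:79886247-79888215, both on the plus strand and 3138 bases apart in the RefSeq models. Ctsg lay at chr14:56099881-56102574 and Cebpe at chr14:54710360-54712174, both on the minus strand. The other genes lay at chr11:87793581-87804413 (Mpo, plus strand), chr8:109575128-109579172 (Hp, minus), chr15:75108158-75111970 (Ly6c2, minus), chr17:48247777-48258841 (Trem3, plus), chr5:134220053-134229625 (Ncf1, minus) and chr13:55005985-55021385 (Hk3, minus). The ends of Ly6c2 and of its neighbour Ly6c1, which 3′ libraries read, were alike, with 291 identical bases when the last 300 bases of their transcripts were aligned (96.04% identity). Counts of Ly6c2 are therefore uncertain wherever a read fits both genes. The 5′ end of the GENCODE model of Prtn3 overlapped the RefSeq span of Plppr3, which had 36.5 to 48.3 CPM in the whole pools. The RefSeq model of Prtn3 starts later, 4709 bases after Plppr3. The Prtn3 window below lies before that RefSeq start and so within the GENCODE span.

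The promoters of the 4 primary granule genes are shown because Elane and Prtn3, though neighbours, went different ways in the counts below. These are the 250 bases before each start in RefSeq (GRCm38.p6), at chr11:87793534-87793783 (Mpo), chr10:79886062-79886311 (Elane), chr10:79879417-79879666 (Prtn3) and chr14:56102575-56102824 (Ctsg, minus strand). Capitals mark the letters GAGGAAGT, an extended PU.1 core.
Mpo: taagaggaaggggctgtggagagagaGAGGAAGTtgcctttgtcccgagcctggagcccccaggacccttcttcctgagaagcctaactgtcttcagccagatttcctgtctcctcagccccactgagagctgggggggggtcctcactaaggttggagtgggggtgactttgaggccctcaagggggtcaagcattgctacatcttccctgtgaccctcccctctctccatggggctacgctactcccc
Elane: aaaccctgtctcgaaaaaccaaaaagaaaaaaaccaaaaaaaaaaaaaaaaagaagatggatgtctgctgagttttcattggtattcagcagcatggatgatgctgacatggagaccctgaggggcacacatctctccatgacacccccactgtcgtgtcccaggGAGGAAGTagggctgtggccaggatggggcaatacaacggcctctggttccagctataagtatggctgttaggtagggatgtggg
Prtn3: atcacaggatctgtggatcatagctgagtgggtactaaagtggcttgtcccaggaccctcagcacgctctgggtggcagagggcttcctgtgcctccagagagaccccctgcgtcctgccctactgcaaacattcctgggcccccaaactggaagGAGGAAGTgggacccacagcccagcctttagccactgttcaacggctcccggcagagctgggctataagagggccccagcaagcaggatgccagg
Ctsg: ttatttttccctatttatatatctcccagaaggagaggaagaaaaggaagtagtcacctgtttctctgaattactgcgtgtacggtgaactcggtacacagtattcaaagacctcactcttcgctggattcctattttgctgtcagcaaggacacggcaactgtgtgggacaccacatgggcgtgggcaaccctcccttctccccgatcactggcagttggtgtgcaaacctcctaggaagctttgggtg
These letters, searched on both strands, were found in the windows of 4 of the 7 member genes in the table: Mpo, Elane, Prtn3 and Ly6c2. They were 224 bases before the start in Mpo, 85 in Elane and 95 in Prtn3. Of 32851 windows of the same length over all genes, 2.44% held them. The C/EBP letters TTNNGNAA were found in 1 member gene (Ly6c2) and in 36.8% of all windows, and TATAAA in 1 (Ctsg) and 12.4%. Only these exact letters were searched. In the windows printed above, the match in Ctsg lies on the opposite strand, at the end far from the start. Elane and Prtn3 hold the similar letters TATAAG close to the start. Such matches are descriptions of letters and not of bound sites. Cebpe, Hp and Trem3 had no entry in this table.

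The 4 pools held 5189 (young A), 2244 (young B), 3328 (aged A) and 4154 (aged B) cells after cells with extreme UMI counts were dropped, with medians of 5674 to 6719 UMIs (unique molecular identifiers, 1 per captured transcript) per cell. Each library shared 34 to 60 of its kept barcodes with another library. Cells were clustered on genes that left out the 10 members. Of 14 clusters, the 668 cells of 1 cluster met 13 of 15 markers of neutrophil priming and are called pNeu-like, and all of its 10 leading genes (among them Dmkn, Ccl9, Igsf6 and Ms4a3) came from that marker list. The marker lists were chosen with earlier results of these data known, so such matches give a cluster its name and are not separate evidence for it. A cluster of 194 cells met the markers of mast cell priming and also some of the pNeu markers, and is called pMast-like. Other clusters are named in the same way (pEr for erythroid, pMk for megakaryocyte, pL1 and pL2 for lymphoid, ifn for interferon response genes, rep and div for replication and division), and clusters 0, 1, 2 and 4 had too few markers for a name. The name tgf is that of the study, and its markers here were Fos, Fosb, Jun, Junb, Egr1, Nr4a1, Ier2, Dusp1, Zfp36 and Atf3. A response to TGF was not tested. Levels are CPM, the UMIs of a gene divided by all UMIs of the cells in question and scaled to a fixed total, so that pools and classes of different depth can be set side by side.

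Mpo transcripts were abundant in pNeu-like and pMast-like cells and sparse in all others. In pNeu-like cells Mpo stood at 2535 CPM in young A, 2449 in young B, 3839 in aged A and 2108 in aged B. In pMast-like cells it was between 1595 and 2497 CPM in the 4 pools, a range that overlapped that of pNeu-like cells. The next clusters were rep-like, at 20.3 to 135 CPM, and div-like, at 14.9 to 134 CPM. Their ranges overlapped each other and those of the clusters below them in order, down to tgf-like cells at 4.17 to 42.5 CPM. Because the clusters were built from other genes of the same cells, levels between clusters are a description and were not tested.

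Elane had the highest share of its UMIs in pNeu-like cells of the 10 genes. It stood there at 1296 CPM in young A, 2584 in young B, 3238 in aged A and 1823 in aged B. pMast-like cells had 164 to 375 CPM, below every pNeu-like value, and none of the other 10 clusters with at least 10 cells in each pool exceeded 34.7 CPM in any pool. Only 34.7% of pNeu-like cells (232 of 668, exact 95% interval 31.1% to 38.5%) had an Elane UMI, but those that did held 48.2 UMIs on average and up to 416. Such a share depends on the clustering. At resolution 0.3 the cluster had 443 cells but still held 86.5% of Elane UMIs, against 86.6% here. Mpo was seen in 74.6% of pNeu-like cells and at up to 233 UMIs in 1 cell. Of the pNeu-like cells, 118 had 10 or more Elane UMIs and 243 had 10 or more Mpo UMIs. Exact (Clopper-Pearson) intervals cover counting error only.

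Ctsg reached its highest level in pMast-like and not in pNeu-like cells. It stood at 3369 and 3456 CPM in young A and young B and at 2265 and 5513 CPM in aged A and aged B of pMast-like cells, against 1223 to 2211 CPM in pNeu-like cells, ranges that did not overlap. A Ctsg UMI was found in 92.1% to 100% of pMast-like cells of a pool and in 40.2% to 62.7% of pNeu-like cells. On chromosome 14 the nearest protein-coding gene on the side of lower coordinates, 14386 bases away, is Mcpt8, a basophil and mast cell protease. Of 57988 Mcpt8 UMIs in all, 53066 lay in pMast-like cells. The nearest genes on the other side, Gzme and Gzmd, had no UMI in any kept cell.

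Prtn3 was found in most cells of nearly every cluster. In pNeu-like cells it stood at 1576 CPM in young A, 1673 in young B, 2082 in aged A and 1856 in aged B. Cluster 0, the largest unnamed cluster, still held 474 CPM in young A, 656 in young B, 1101 in aged A and 1436 in aged B. A Prtn3 UMI was found in 91.3% of all cells and in 94.9% of cluster 0, against 47.8% of pEr-like cells (interval 43.2% to 52.4%), which had a higher median depth (6962 against 5736 UMIs per cell). pEr-like cells had the lowest Prtn3 of the 12 clusters with at least 10 cells in each pool, at 89.2 to 188 CPM. Of the genes next to the Prtn3 and Elane pair, Plppr3 stood at 48.1 to 77.1 CPM in pNeu-like cells and at 36.5 to 48.3 CPM in whole pools. Ptbp1 stood at 57.5 to 122 CPM and at 55.6 to 110 CPM, and Cfd had 7 UMIs in all kept cells. The levels of these neighbours in cluster 0 and in pEr-like cells were not compared.

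**Figure D1:**
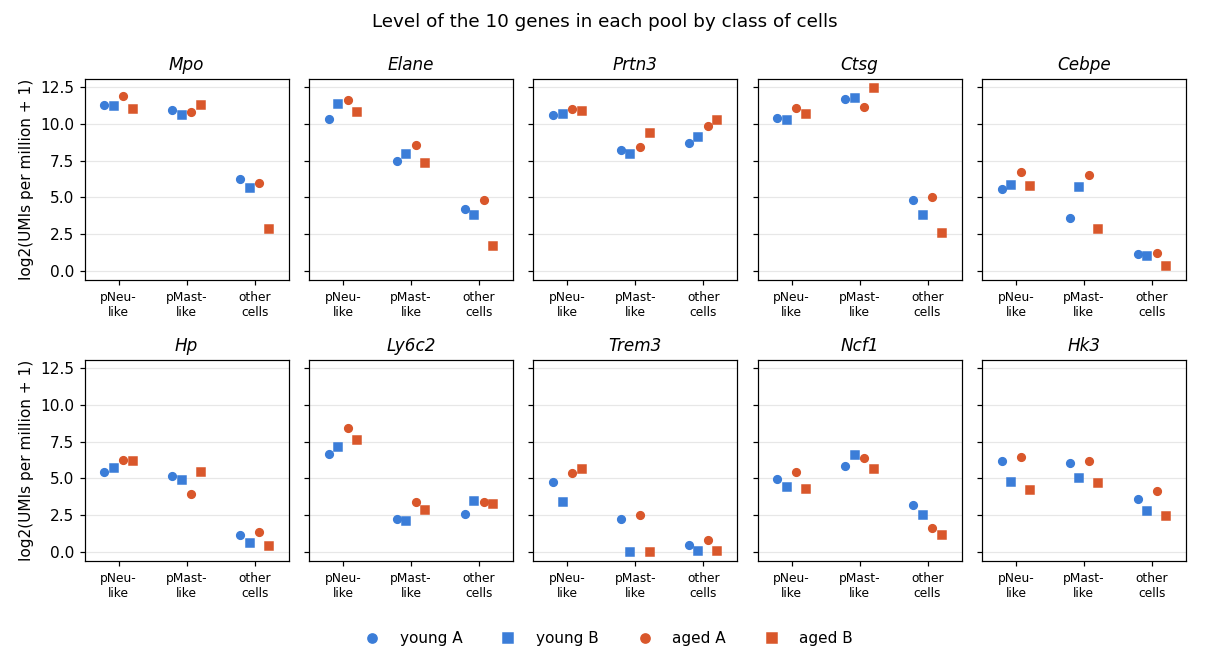
Level of each gene as log2(CPM + 1) in pNeu-like cells, pMast-like cells and all other cells, with 1 point per pool (blue young, orange aged, circles platform A, squares platform B). Mpo and Ctsg are high in both primed classes, Elane and Trem3 mainly in pNeu-like cells, Ly6c2 is higher there than in pMast-like cells or in the other cells summed, and Prtn3 stays above 414 CPM in the other cells of all 4 pools.

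Cebpe, Hp and Trem3 were rarer and had their highest levels in pNeu-like cells. Cebpe stood at 46.6 to 104 CPM in pNeu-like cells and 6.09 to 89.1 CPM in pMast-like cells, which overlapped, and at 2.69 CPM or less in each pool of the other 10 clusters compared. The pMast-like values rest on few cells, and in young B all 16 UMIs lay in 1 of 38 cells. In that pool pMast-like cells held 16.7% of Cebpe UMIs, but 0% with the members kept in the clustering. Hp stood at 42.7 to 76.9 CPM in pNeu-like cells, just above its 14.1 to 42.6 CPM in pMast-like cells. In aged B the 7 pL1-like cells, a cluster too small to be compared in every pool, had 7 Hp UMIs, or 99.5 CPM. Trem3, with 197 UMIs in all, stood at 25.9 and 9.53 CPM in young A and young B and at 41.1 and 48.1 CPM in aged A and aged B of pNeu-like cells. In the other 11 clusters compared it did not exceed 4.69 CPM in any pool. Trem3 was not seen in any of 471 pEr-like cells, which allows a share of cells with a UMI of up to 0.637%.

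Ncf1, the oxidase subunit, was highest in pMast-like cells at 48.7 to 97.1 CPM, above the 18.8 to 43.3 CPM of pNeu-like cells. pL1-like cells, with 19 Ncf1 UMIs in all, had 19.9 to 56.8 CPM. Of the clusters with at least 10 cells in each pool, pMk-like cells followed at 4.64 to 13.1 CPM, and from there on neighbours in order overlapped. Hk3 stood at 17.6 to 86.6 CPM in pNeu-like cells and 24.4 to 70.3 CPM in pMast-like cells, and both overlapped tgf-like cells at 8.35 to 34.9 CPM. In pNeu-like cells its pools separated by platform, with 70.7 CPM in young A and 86.6 in aged A against 26.0 in young B and 17.6 in aged B.

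Ly6c2 was held by few cells of several kinds. In pNeu-like cells it stood at 102 CPM in young A, 138 in young B, 338 in aged A and 195 in aged B, and 14.5% of these cells had a UMI. The small pL1-like and pL2-like clusters held it at higher levels. The pL1-like cluster also met some of the pNeu and tgf markers. The leading genes of the pL2-like cluster included Jchain, Ighm, Igkc and Hbb-bs. Whether these cells are lymphoid-primed HSPCs was not tested. pL1-like cells had 231 CPM in young A, 813 in young B, 338 in aged A and 1478 in aged B, and pL2-like cells 1305, 482, 377 and 557 CPM in that order. These levels rest on 305 UMIs in 20 of 87 pL1-like cells and 157 UMIs in 19 of 35 pL2-like cells. They were above those of pNeu-like cells in every pool, by under 1 CPM in aged A of pL1-like cells. A single cell of cluster 0 in aged B held 89 of that cluster's 94 Ly6c2 UMIs in the pool. With all pools summed, a Ly6c2 UMI was found in 1.82% of cells outside the pNeu-like cluster, close to the 1.91% of pEr-like cells.

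**Figure D2:**
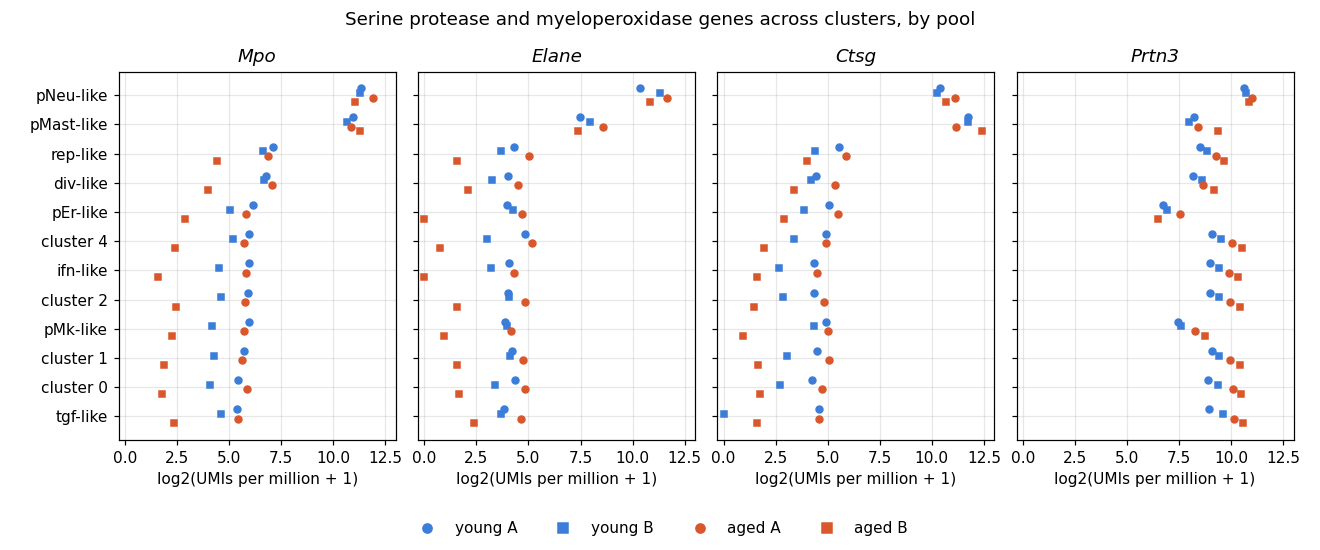
Levels of Mpo, Elane, Ctsg and Prtn3 as log2(CPM + 1) in the 12 clusters with at least 10 cells in each pool, ordered by the mean Mpo level, with 1 point per pool. Below pMast-like cells, the pools of Mpo, Elane and Ctsg overlap between clusters, whereas Prtn3 is higher in both aged pools in all clusters but pEr-like.

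pNeu-like cells made up 4.48% of kept cells and 5.37% of their UMIs. They held 86.6% of Elane UMIs, 82.7% of Trem3, 71.7% of Cebpe, 69.7% of Hp, 66.9% of Mpo, 55.0% of Ctsg and 54.3% of Ly6c2 UMIs. The share of Ly6c2 was 63.6% in young A, 51.3% in young B, 62.4% in aged A and 37.7% in aged B. For Hk3, Ncf1 and Prtn3 they held 24.3%, 24.2% and 11.01%. The pMast-like cluster, with 1.30% of cells, held 33.2% of Ctsg UMIs, 15.2% of Ncf1 and 12.7% of Mpo, but 2.55% of Elane and 0.412% of Ly6c2 UMIs. Thus, among kept cells, most UMIs of 7 members lay in 1 cluster, while most Prtn3 UMIs lay outside both primed clusters. Cells dropped for extreme UMI counts were not clustered, and they held 54.8% and 64.4% of Elane UMIs in young A and young B. These shares therefore do not describe all UMIs of the pools.

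**Figure D3:**
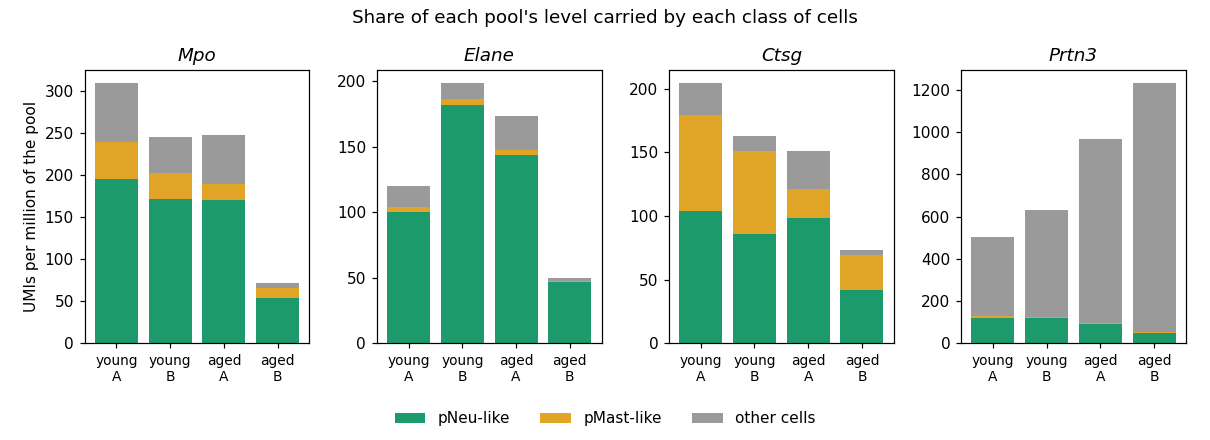
Stacked bars of the CPM of each pool that came from pNeu-like, pMast-like and all other cells, for Mpo, Elane, Ctsg and Prtn3, each panel with its own axis from 0. Among kept cells, Elane comes almost wholly from pNeu-like cells, Ctsg from both primed clusters, and Prtn3 from other cells, where it is higher in both aged pools.

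Members were also seen together in single cells. Among pNeu-like cells, 41.6% had a UMI of 3 or more of the 9 members other than Prtn3, 18.1% had none, and the most in 1 cell was 9. The share with none was 9.97% in young A, 19.7% in young B, 15.3% in aged A and 47.8% in aged B. Cells with 3 or more were deeper, at a median of 11044 UMIs against 7389 for the cluster. Outside the cluster, 61.5% of cells had none of the 9, 27.4% had 1, and 2.69% had 3 or more, again deeper cells (8983 against 6128 UMIs). The share with 3 or more there was 3.96% in young A, 2.52% in young B, 3.64% in aged A and 0.492% in aged B. In cells outside the cluster with an Mpo UMI, Ctsg was found in 21.1% and in the others in 8.15%, and Elane in 12.8% and 8.15%. Prtn3 was found in 89.0% of cells with Mpo and 91.4% of those without. Depth differs between such cells, so these shares are descriptions. The cells outside the cluster also include the 194 pMast-like cells. In a pool, 92.1% to 100% of pMast-like cells had a Ctsg UMI and 73.3% to 91.7% an Mpo UMI. Their part in the shares outside the cluster was not counted, so these shares do not describe cells without priming.

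Over 53 sums of cells by cluster and pool, Elane followed the mean log2(CPM + 1) of the other 9 members most closely (Pearson r = 0.949), followed by Hp (0.924), Mpo (0.889), Ctsg (0.881), Cebpe (0.866), Trem3 (0.713), Ncf1 (0.702) and Hk3 (0.651). Ly6c2 (0.397) and Prtn3 (0.230) followed it least. The 8 other genes with the pattern most like the mean of the members, among 12193, were Igsf6 (0.881), Clec12a (0.858), Ccl9 (0.855), Anxa3 (0.853), Fcgr3 (0.832), Dmkn (0.825), Atp8b4 (0.821) and Pi16 (0.806). All but Pi16 are on the list of pNeu markers that named the cluster. That list was chosen with earlier results of these data known, so the overlap is not separate evidence. Sums of 1 pool share a library and its depth, so these correlations describe the sums and carry no p.

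Outside both primed clusters, cells with an Mpo, Elane or Ctsg UMI were set beside erythroid-primed cells, a class primed for another lineage. An Mpo UMI was found in 19.3% of the 14053 cells outside both clusters (median depth 6123 UMIs) and in 28.0% of pEr-like cells (interval 24.0% to 32.3%, median depth 6962 UMIs). With cells of at least 3000 UMIs thinned to 3000 UMIs these shares were 9.79% and 12.04%. Shallower cells were left out of all thinned shares, 176 of the kept cells in aged A, 50 in young B, 4 in aged B and 0 in young A. Elane was found in 8.82% and 11.7% (4.08% and 3.66% thinned), and Ctsg in 9.60% and 18.3% (4.55% and 6.67% thinned). All these shares sum the pools, which differed in level and in their part of each class. Aged B, where shares were lowest, gave 4038 of the 14053 cells but 62 of the 471 pEr-like cells.

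In cluster 0, the largest cluster, an Mpo UMI was found in 14.2% of cells (6.90% thinned), Elane in 7.72% (3.94%) and Ctsg in 7.34% (3.53%). No cell of cluster 0 held more than 4 Mpo, 3 Elane or 3 Ctsg UMIs. With all pools summed, its shares were at or below those of pEr-like cells except for Elane after thinning. The pools made up the 2 clusters differently, with 1374 of 3693 cells of cluster 0 but 62 of 471 pEr-like cells from aged B. In aged A the Mpo level was 56.3 CPM in cluster 0 against 54.0 in pEr-like cells, and in the other pools it was lower in cluster 0. Elane stood at 28.0 against 25.0 CPM in aged A and at 9.60 against 17.9 CPM in young B. Whether the low shares of cluster 0 are background or expression was not tested. The Mpo level of rep-like cells was above that of pEr-like cells in each pool, at 135 against 70.7 CPM in young A, 98.8 against 31.3 in young B, 117 against 54.0 in aged A and 20.3 against 6.37 in aged B. Single rep-like cells held up to 40 Mpo UMIs, and 1 pEr-like cell held 42.

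This low level differed between pools. In cluster 0 Mpo stood at 41.5 CPM in young A, 16.0 in young B, 56.3 in aged A and 2.44 in aged B. Cluster 1 gave 51.7, 18.4, 47.9 and 2.68 CPM in the same order, and cluster 2 gave 58.9, 23.5, 52.7 and 4.39 CPM. In each of these clusters aged B was lowest and the platform A pools were highest. With all pools summed, cluster 0 held 51.1 Elane UMIs and 46.6 Ctsg UMIs for every 100 Mpo UMIs, and cluster 4 held 50.3 and 49.7. rep-like cells held 15.2 and 34.9, pMast-like cells 11.3 and 179, and pNeu-like cells 73.0 and 56.5. The part of free RNA in these values was not tested.

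Hk3 and Prtn3 stood higher outside the pNeu-like cluster than in pEr-like cells. An Hk3 UMI was found in 6.37% of cells outside the pNeu-like cluster (interval 5.97% to 6.78%) and in 1.49% of pEr-like cells (0.600% to 3.04%), and after thinning in 2.99% and 1.08%. For every 100 Mpo UMIs, cluster 0 held 1143 Prtn3 UMIs in young A, 4097 in young B and 1957 in aged A, and 58952 in aged B, where only 27 Mpo UMIs were seen. In pNeu-like cells these values were 62.2, 68.3, 54.2 and 88.0, and in pEr-like cells 148, 390.5 and 349 in young A, young B and aged A. With all pools summed, Ncf1 (3.26% outside the cluster, 2.55% of pEr-like cells, interval 1.32% to 4.41%), Cebpe (0.667% and 0.425%) and Hp (0.835% and 1.06%) were not told apart from pEr-like cells at this depth. The pools made up the classes differently, and shares of Ncf1 by pool are given below.

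With age, no member passed the threshold over whole pools. Ncf1 came closest, at 10.8 CPM in young A, 7.62 in young B, 4.71 in aged A and 1.92 in aged B. Both aged pools were below both young pools, and the log2 fold change was -1.62 (standard error 0.252, adjusted p = 0.0550 by edgeR's quasi-likelihood test blocked by platform, p-values adjusted over all genes by Benjamini-Hochberg). All 10 members were tested, 7 had a negative fold change, and 4 had an unadjusted p under 0.05 (Ncf1, Prtn3, Ctsg and Mpo). Over all 13555 genes tested, 2.03% were called, 2175 had an unadjusted p under 0.05, and the median log2 fold change was 0.01 against -0.63 for the members. DESeq2, the other tool, called those 4 genes, and 4.01% of all. In a whole pool, fewer cells of a type and less RNA per cell cannot be told apart, and the pNeu-like cluster made up 6.19% and 6.11% of cells in young A and young B and 3.55% and 2.21% in aged A and aged B.

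Mpo stood at 310 CPM in young A, 246 in young B, 248 in aged A and 72.3 in aged B, so that the ages overlapped. Its log2 fold change was -1.09 (standard error 0.351, edgeR adjusted p = 0.226; DESeq2 -1.13, adjusted p = 0.0270). Ctsg stood at 204 CPM in young A, 163 in young B, 151 in aged A and 73.6 in aged B, without overlap (-0.84, standard error 0.212, edgeR adjusted p = 0.147; DESeq2 adjusted p = 0.0287). Elane went opposite ways on the platforms, from 120.2 in young A to 174 CPM in aged A and from 198 in young B to 49.7 CPM in aged B (-0.78, standard error 0.595, edgeR adjusted p = 0.628). On both platforms the pool with more reads per cell had the higher Elane level, and the part of read depth was not tested. Of the 10 genes, 3 (Ctsg, Ncf1 and Prtn3) had aged and young pools that did not overlap, against 31.8% of all genes tested, so that this count was near the background.

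Prtn3 differed in the other direction. It stood at 501 CPM in young A, 631 in young B, 966 in aged A and 1231 in aged B, and the log2 differences within platforms A and B were 0.94 and 0.96. The fitted log2 fold change was 0.90 (standard error 0.227, edgeR adjusted p = 0.147; DESeq2 0.87, adjusted p = 0.00947). Of the difference between ages, pNeu-like cells carried -29.2 CPM on platform A and -70.2 CPM on platform B, and cells outside both primed clusters 497 and 672 CPM. The aged pools were both above the young pools in 11 of 12 clusters, the exception being pEr-like cells. In these 11 clusters the direction is that of the same 4 libraries each time, so they are not separate evidence.

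The remaining members did not pass the test. Cebpe stood at 4.94 and 5.85 CPM in young A and young B and 6.73 and 1.62 CPM in aged A and aged B (-0.69, standard error 0.545). Hp stood at 5.16, 4.70, 5.003 and 2.31 CPM in the same order, and Hk3 at 16.8, 7.93, 20.6 and 4.87 CPM. Ly6c2 gave 12.3, 18.9, 24.1 and 13.2 CPM, and Trem3 2.44, 0.732, 2.55 and 1.29 CPM. Adjusted p for these 5 genes lay between 0.468 and 0.867 by edgeR, and in each of them the ages overlapped.

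**Figure D4:**
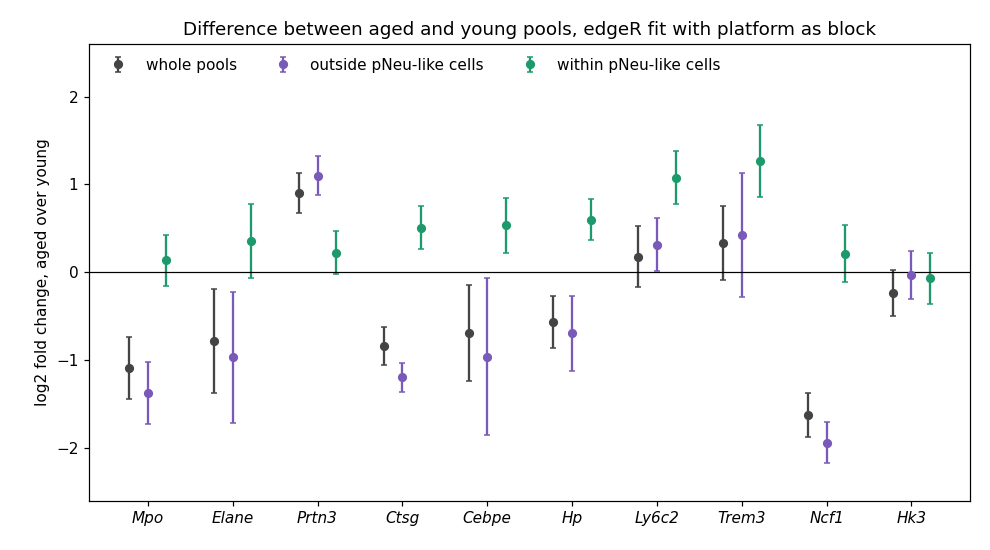
Fitted log2 fold change of aged over young pools for the 10 genes, in whole pools, outside and within pNeu-like cells, with bars of 1 standard error from edgeR's fit with platform as a block. In whole pools and outside pNeu-like cells, 7 of 10 values are below 0, and within pNeu-like cells 9 of 10 are above 0, and 1 of the 30 values (Ncf1 outside pNeu-like cells) passed the threshold.

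Outside pNeu-like cells, Ncf1 was the 1 member called. It stood at 9.16 CPM in young A, 6.62 in young B, 2.92 in aged A and 1.48 in aged B, and it fell by 1.94 on the log2 scale (standard error 0.235, edgeR adjusted p = 0.0452). Of all 13554 genes tested there, 1.55% were called. The call sat near the threshold: a later version of edgeR's method gave an adjusted p of 0.0517. Without the platform block, no member was called there even with all pools. The fits with 1 pool left out also lacked the block, so they cannot show whether the call rests on 1 pool. Over all other settings the log2 fold change lay between -2.29 and -1.64. With pMast-like cells left out too the call held, at -1.997 and an edgeR adjusted p of 0.0340. In clusters 0 and 1 the aged pools had at most 1.17 CPM of Ncf1, where the young pools had 3.66 to 11.6 CPM, and the aged pools were both below the young in 7 of 12 clusters. The clusters come from the same 4 libraries, so they are not separate evidence, and the share over all genes is not given by cluster. Outside pNeu-like cells, the share of cells with an Ncf1 UMI was 5.79% in young A (interval 5.15% to 6.49%), 4.03% in young B, 1.62% in aged A and 1.11% in aged B. In pEr-like cells it was 2.67% (0.985% to 5.71%) in young A, 4.05% in young B and 2.73% in aged A. In aged B it was 0 of 62 pEr-like cells, which allows a share of up to 4.84%. In each pool the intervals of the pair overlapped, but this is not a test of a difference, and these shares were not brought to equal depth. The part of free RNA in this call was not tested.

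Ctsg, Mpo and Prtn3 outside pNeu-like cells followed their whole-pool pattern without passing the test. Ctsg stood at 108 and 82.6 CPM in young A and young B and at 55.4 and 32.7 CPM in aged A and aged B (-1.20, standard error 0.162, edgeR adjusted p = 0.0552). With pMast-like cells left out too, its difference shrank to -0.61 (adjusted p = 0.539). The pMast-like cluster itself made up 1.97% and 1.69% of cells in young A and young B and 0.901% and 0.578% in aged A and aged B. Mpo gave 123, 79.2, 81.4 and 18.8 CPM (-1.38, adjusted p = 0.174), and Prtn3 412, 552, 914 and 1214.5 CPM (1.10, adjusted p = 0.113) by edgeR. DESeq2 called Mpo, Prtn3, Ctsg and Ncf1 there, and 4.22% of all genes.

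Within pNeu-like cells no member was called, and 9 of 10 fold changes were above 0. Of 7697 genes tested in these 92 to 321 cells per pool, 0.052% were called and 298 had an unadjusted p under 0.05, among them Ly6c2, Trem3 and Hp. Ly6c2 had a log2 fold change of 1.08 (standard error 0.303), Trem3 of 1.26 (0.413) and Hp of 0.60 (0.237). Their adjusted p was 0.9997 by edgeR, and DESeq2 called none of the 10 genes, with 1 of them at an unadjusted p under 0.05. Mpo gave 0.14 (0.292) and Elane 0.36 (0.424), and each pair of platforms disagreed: Elane stood at 1296 CPM in young A and 3238 in aged A, but at 2584 in young B and 1823 in aged B.

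The change with age was then compared between pNeu-like and other cells in a fit with pool as a block. The ratio of the Ctsg level in pNeu-like cells to that in other cells was 12.5 in young A and 14.8 in young B, and 39.9 in aged A and 49.8 in aged B. For Ncf1 the ratio was 3.26 and 3.14 in young A and young B and 14.8 and 12.7 in aged A and aged B. For Mpo it was 20.6 and 30.9 in the young pools and 47.1 and 112 in the aged pools. Prtn3 went the other way, from 3.83 and 3.03 to 2.28 and 1.53. In each of these 4 genes, and in Cebpe and Ly6c2, the ratios of the ages did not overlap. The share of all genes with such ratios was not counted, so the number of such members has no background here. For levels over whole pools, another measure, the share was 31.8%. A ratio moves with either level. That of Mpo in pNeu-like cells overlapped between the ages, whereas in other cells aged B, at 18.8 CPM, was far below the 79.2 to 123 CPM of the other pools.

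The other cells held pMast-like cells, where Ctsg was highest and which were fewer in the aged pools. Against cells outside both primed clusters, Ctsg stood at 27.2 CPM in young A, 12.9 in young B, 31.4 in aged A and 4.83 in aged B, and its ratio became 49.7, 95.1, 70.4 and 337 in that order, so that the ages overlapped. The ratio of Mpo became 32.9, 51.2, 61.3 and 340.2. For Ncf1 it was 3.75, 4.38, 21.3 and 15.1, and for Prtn3 3.80, 3.00, 2.26 and 1.52. In these last 3 genes, and in Cebpe and Ly6c2, the ages stayed apart, and the share over all genes was not counted.

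The default edgeR fit called 7 of the 10 members (Mpo, Elane, Prtn3, Ctsg, Hp, Ly6c2 and Ncf1), against 3.09% of 12569 genes. Its errors were small beside the spread between platforms. For Elane the log2 difference was 0.80 on platform A and 2.01 on platform B, with a fitted standard error of 0.149. The same comparison was therefore made with other fits, of which the later edgeR method and limma were chosen after the values were seen. A later version of edgeR's method called 4 members, Ctsg (1.67, standard error 0.131, adjusted p = 5.42e-05), Ncf1 (2.07, 0.297, adjusted p = 0.00507), Mpo (1.45, 0.266, adjusted p = 0.0209) and Prtn3 (-0.92, 0.198, adjusted p = 0.0488). DESeq2 called 3, Ctsg, Ncf1 and Prtn3. limma on the 4 log2 ratios called none (adjusted p of 0.714 for these 4), with Ctsg, Ncf1, Mpo and Hp at an unadjusted p under 0.05. Thus Ctsg, Ncf1 and Prtn3 passed in both edgeR fits and in DESeq2 with pMast-like cells among the other cells, and Elane, Hp and Ly6c2 in the default edgeR fit alone. Of all genes given an adjusted p, the later method called 0.899%, DESeq2 2.18% of 6233, and limma 0%.

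In the later edgeR method and in DESeq2, most of these calls did not hold when pMast-like cells were left out of the comparison, an alternative chosen after the values were seen. The later edgeR method then called Ncf1 alone (2.199, standard error 0.324, adjusted p = 0.00832). In that fit Ctsg was at 1.02 (0.460, adjusted p = 0.450), Mpo at 1.58 (0.471, adjusted p = 0.195) and Prtn3 at -0.92 (0.199, adjusted p = 0.0626). DESeq2 called Prtn3 alone (-0.88, adjusted p = 0.00114), with Ctsg at an adjusted p of 0.930 and Ncf1 given no adjusted p (unadjusted p = 4.68e-05). The default edgeR fit called 6 members, losing Hp (0.88, adjusted p = 0.469), and limma called none, with Ncf1 and Cebpe at an unadjusted p under 0.05. Of all genes these 4 fits called 0.757% (later method), 2.46% of 5005 with an adjusted p (DESeq2), 3.02% (default) and 0% (limma). No member passed in all 3 of the edgeR and DESeq2 fits without pMast-like cells.

 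In the default fit with pMast-like cells among the other cells, leaving out 1 pool kept the calls of Mpo, Prtn3, Ctsg and Ncf1 in each case. The call of Elane was lost without young A (0.50) or aged B (0.24), that of Hp without young A (0.68) or aged B (0.76), and that of Ly6c2 without young B (0.39) or aged A (0.36).

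**Figure D5:**
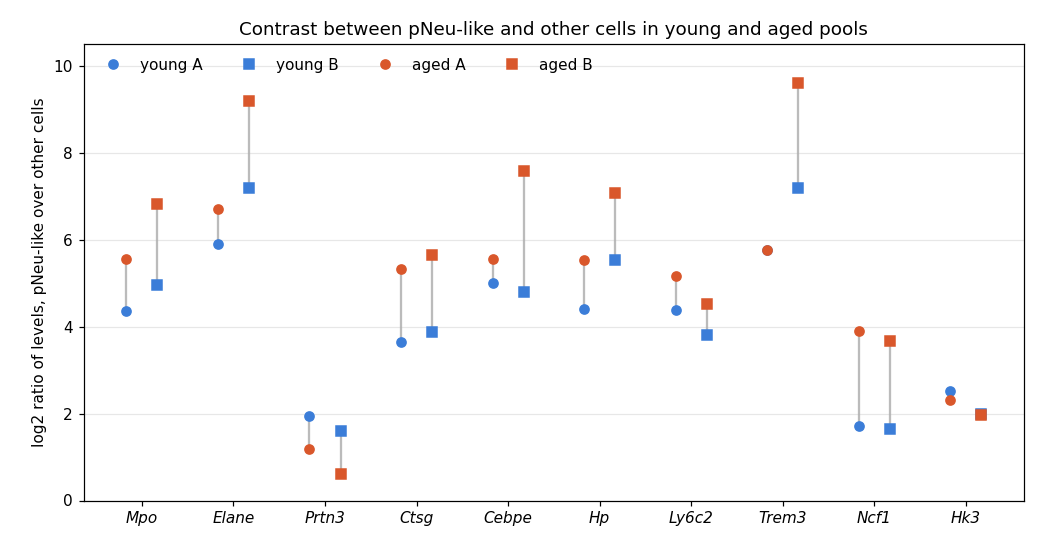
Log2 ratio of each gene's level in pNeu-like cells to that in all other cells, with the young and aged pool of a platform joined by a line (circles platform A, squares platform B). The ratio is higher in the aged pool on both platforms for Mpo, Elane, Ctsg, Cebpe, Hp, Ly6c2 and Ncf1, lower for Prtn3 and Hk3, and it splits by platform for Trem3, whose ratio on platform B rests on 1 and 2 UMIs in other cells.

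Genes of the same pathways came from 7 lists chosen with earlier results known. Of their 58 genes tested over whole pools, 5 fell and none rose (8.62% called), where over all genes 2.03% were called, 217 of them higher in aged pools and 58 lower. Of the primary granule list, 17 of 18 genes were tested and 1 fell, Nkg7, a granule membrane protein, from 201 and 233 CPM in young A and young B to 96.1 and 79.9 CPM in aged A and aged B (-1.35, standard error 0.189, edgeR adjusted p = 0.0434). The median of that list was -0.09. Of 22 genes of later granules, 9 were tested and none was called. Of 8 other NADPH oxidase genes, all tested, 1 fell, Ncf4, which encodes p40phox, the partner of p47phox, from 23.9 and 25.0 CPM to 7.26 and 6.16 CPM (-1.92, standard error 0.184, edgeR adjusted p = 0.0217), and the list's median was -0.36.

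Regulators and receptors held the other 3 calls. Of 9 myeloid transcription factors tested, 1 fell, Cebpa, which drives granulocyte commitment, from 25.4 and 2.74 CPM to 9.52 and 0.841 CPM (-1.59, edgeR adjusted p = 0.0346), with platform A far above platform B at both ages. Of 10 myeloid receptor genes, 1 fell, Csf2rb, the shared β chain of the GM-CSF, IL-3 and IL-5 receptors (-1.83, edgeR adjusted p = 0.0366). Csf2rb has a close paralog, Csf2rb2, so its counts are uncertain where a read fits both. Of 3 genes tested in the list of the TREM family, 1 fell, Tyrobp, which encodes the adaptor DAP12, from 91.8 and 95.4 CPM to 38.8 and 26.3 CPM (-1.60, edgeR adjusted p = 0.0308). None of 3 hexokinase genes tested was called.

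Markers of other cells were counted beside these results. Of 10 mature neutrophil markers 4 were tested and none was called. The summed level of the list was 8.12 and 10.7 CPM in young A and young B and 9.76 and 5.95 CPM in aged A and aged B. Retnlg, Mmp8 and Ltf were each at or below 0.270 CPM in every pool, so most of this level came from the other markers of the list. Of 10 monocyte and dendritic markers 9 were tested and 1 fell, Ms4a6c (-1.40, edgeR adjusted p = 0.0376), with a summed level of 579.5 and 579.9 CPM in young A and young B and 582 and 601 CPM in aged A and aged B. All 10 pMast markers were tested and 1 fell, Cd200r3 (-1.53, edgeR adjusted p = 0.0366), and their sum went from 1231 and 1189 CPM in young A and young B to 789 and 436 CPM in aged A and aged B. Of 15 pNeu markers 14 were tested and 3 fell (BC035044, Tyrobp and Cebpa), with sums of 370 and 307 against 227 and 103 CPM. The part of these cell numbers in the members' values was not tested beyond the fits within classes.

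Cells left out for extreme UMI counts held many of the members' UMIs in 3 of the 4 pools. They carried 11.04% to 13.7% of all UMIs of a pool, but 40.9% of Mpo UMIs in young A, 54.9% in young B, 33.9% in aged A and 9.31% in aged B. For Elane the shares were 54.8%, 64.4%, 37.1% and 8.21% in the same order, and for Ly6c2 59.1%, 76.5%, 32.5% and 11.5%. Prtn3 shares were nearer to those of all UMIs, at 20.3%, 24.6%, 11.5% and 10.2%. With these cells kept, Ly6c2 stood at 26.0 and 70.3 CPM in young A and young B and 31.2 and 13.3 CPM in aged A and aged B, and its log2 fold change went from 0.18 to -1.12. Those of Mpo, Ctsg and Elane went to -1.66, -1.37 and -1.68, and no member was called by edgeR.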

How the data were processed

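The deposited files hold raw UMI counts per gene and cell, which the authors made with Cell Ranger 2.2.0 on the mouse genome (10x 3′ libraries). Cells whose log UMI count lay beyond 2 SD of their pool's mean were left out. Kept cells were clustered without the 10 members (Seurat 5.3.0, 2000 variable genes, 15 principal components, resolution 0.5, scran 1.30.0), and clusters were named from marker lists. No doublet caller was run. UMIs were summed per pool and class, and ages were compared with edgeR 4.0.16 (quasi-likelihood test, TMM, filterByExpr, R 4.3.3) with the platform letter as a block. Deviations of pools with the same letter correlated at 0.576 over 13555 genes, and the letter marks a shared platform. DESeq2 1.42.0 was an alternative. Calls have a Benjamini-Hochberg adjusted p under 0.05. Pools hold several mice each, with 2 pools per age, so an exact permutation test cannot go below p = 0.33. The kept cells held 36446168, 16399999, 20788935 and 33286187 UMIs (young A, young B, aged A, aged B). Members and lists were chosen with earlier results of these data known, and all 10 members are described. Promoters were taken from RefSeq and searched with Python 3.11.15. The scripts were tested on simulated data.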

Additional observations from a re-analysis of the deposited data

Results flagged for a closer look

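The default edgeR fit with pool as a block called 7 of the 10 genes for a change with age that differed between pNeu-like and other cells. It called 3.09% of all 12569 genes. The log2 differences were 1.46 for Mpo, 1.15 for Elane, -0.92 for Prtn3, 1.67 for Ctsg, 1.35 for Hp, 0.69 for Ly6c2 and 2.07 for Ncf1. The later edgeR method called 4 of these (Mpo, Prtn3, Ctsg and Ncf1), DESeq2 called 3 (Prtn3, Ctsg and Ncf1) and limma on the 4 log2 ratios called 0. With pMast-like cells left out, these 3 called Ncf1 alone, Prtn3 alone and 0. Over all genes these 3 fits called 0.899%, 2.18% of 6233 and 0%. Without pMast-like cells they called 0.757%, 2.46% of 5005 and 0%.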

How the results depend on the processing

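Of all genes tested, the default edgeR fits called 2.03% over whole pools, 1.55% outside and 0.052% within pNeu-like cells, and 3.09% between the classes. DESeq2 called 4.01% over whole pools, 4.22% outside pNeu-like cells and 2.18% between the classes. For settings without a share here or above, the share over all genes is not given, so their counts of members have no background. The number of members called with age depended on the tool and filter. Over whole pools it was 0, but 4 with DESeq2, 1 with no filter on low counts and 1 without the 5% of cells with most UMIs. Outside pNeu-like cells it was 1, but 4 with DESeq2, 2 with RLE factors and 3 with no filter on low counts. It was 2 without the 5% of cells with most UMIs, 2 at clustering resolution 0.8 and 0 with the later edgeR method. Without the replicate block it was 0 there. Within pNeu-like cells it was 0, but 2 with no filter on low counts. Between the classes it was 7, but 3 with DESeq2, 4 with the later edgeR method and 0 with limma. With pMast-like cells left out of it, an alternative chosen after the values were seen, it was 6 with the default method, but 1 with DESeq2, 1 with the later edgeR method and 0 with limma. The causes were not tested. The pNeu-like cluster had 668 cells, but 443 at resolution 0.3, 691 at 0.8 and 475 with the members kept in the clustering. Shares of its cells with a UMI, or with none, depend on that size and are given for 668 cells.

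Directions turned as follows, none of them past the threshold. Over whole pools, outside and within pNeu-like cells, the fits that left out 1 pool also left out the platform block. In them the part of the pool and that of the block cannot be told apart. Over whole pools, leaving out 1 pool moved Cebpe to between -1.63 and 0.091, Ly6c2 to between -0.24 and 0.59, Trem3 to between -0.36 and 1.15 and Hk3 to between -1.21 and 0.54. With no filter on cells Ly6c2 was at -1.12 and Trem3 at -0.98, and without the 5% of cells with most UMIs Hp was at 0.021. Outside pNeu-like cells, leaving out 1 pool moved Elane to between -2.54 and 0.44, Cebpe to between -2.52 and 0.13, Ly6c2 to between -0.32 and 0.92, Trem3 to between -2.06 and 2.17 and Hk3 to between -0.92 and 0.69. Hk3 was at 0.11 without the replicate block and at 0.080 without pMast-like cells. Within pNeu-like cells, leaving out 1 pool moved Mpo to between -0.19 and 0.46, Elane to between -0.20 and 0.97, Ncf1 to between -0.38 and 0.61 and Hk3 to between -1.40 and 0.81. Hk3 was at 0.018 without the replicate block, 0.044 at resolution 0.3 and 0.069 with the members kept in the clustering. Between the classes, Trem3 lay between -0.15 and 3.46 and Hk3 between -0.48 and 0.26 with 1 pool left out.

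With 197 to 470 UMIs in all, Trem3, Hp and Cebpe had little depth for a difference between 4 pools.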
